A study of Mus musculus with 8 samples.

Results

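Pramel4, Pramel5, Pramel6 and Pramel7 are 4 mouse genes of the PRAME family, and they were measured here in embryonic stem (ES) cells with and without OHT, which removes the last RAS gene, in cells labelled wild type or knockout for the repressor ERF. They were taken by name, with all their probes found through the RefSeq accession printed on the array, out of 21154 genes with a named probe. They were selected on their signal on these same arrays over OHT and genotype, so their own levels and differences are given as a description with errors and without a test. Each gene had 1 probe. Pramel6 and Pramel7 were well above background on all 8 arrays, Pramel4 on 1 array and Pramel5 on 0, so 2 of the 4 passed the filter on dim probes, which needs both arrays of at least 1 group, and stand among the 15180 genes tested.

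All 8 samples were mouse ES cells of the genotype H-Ras-/-;N-Ras-/-;K-Ras lox/lox;RERT ert/ert, grown on gelatin in serum and LIF. RERT ert/ert makes a Cre recombinase that 4-hydroxytamoxifen (OHT) switches on, and OHT thus removes K-Ras, the last RAS gene, from these cells. The 4 groups were ERF-WT untreated, ERF-WT with OHT, ERF-KO untreated and ERF-KO with OHT, each with 2 arrays, and OHT was given for at least 2 days. ERF is an ETS family repressor that ERK keeps out of the nucleus, and the series asks what it contributes to the response to losing RAS. Each sample was a mix of 2 clones. Replicate 1 came from pool A1 (wild type) or A2 (ERF-KO) and replicate 2 from pool B1 or B2, and the same pool was sampled without and with OHT. No group given OHT kept RAS, so effects of OHT and of RAS loss cannot be told apart.

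PRAME proteins are built of leucine-rich repeats, and human PRAME is known as a substrate receptor of cullin 2 ubiquitin ligases. In mouse the family has grown into large clusters of near copies, many of them active in oocytes, early embryos and testis. Pramel7 is known from the inner cell mass and from naive ES cells, where it acts downstream of LIF and STAT3 and, with cullin 2, marks UHRF1 for degradation. UHRF1 guides the maintenance of DNA methylation, so Pramel7 is tied to the low methylation of naive cells. Pramel6 is a related gene of naive ES cells. Roles of Pramel4 and Pramel5 are less well described.

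In the RefSeq annotation of GRCm38.p6, Pramel6 and Pramel7 lie next to each other on chromosome 2, on opposite strands and with 0 genes between them. Their promoters are shown because these neighbours changed together in the data below. Each window runs from 250 bases before to 50 bases after the RefSeq start, Pramel6 at chr2:87506315-87506614 on the plus strand and Pramel7 at chr2:87492369-87492668 on the minus strand. Capitals mark GGAA or its complement TTCC, the core letters that ETS factors such as ERF bind.
Pramel6 promoter: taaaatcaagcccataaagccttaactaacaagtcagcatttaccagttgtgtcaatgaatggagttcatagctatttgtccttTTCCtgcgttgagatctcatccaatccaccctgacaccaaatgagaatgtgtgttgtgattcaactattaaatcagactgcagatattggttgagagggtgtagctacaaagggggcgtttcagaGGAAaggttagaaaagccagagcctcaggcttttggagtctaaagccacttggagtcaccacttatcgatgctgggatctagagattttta
Pramel7 promoter: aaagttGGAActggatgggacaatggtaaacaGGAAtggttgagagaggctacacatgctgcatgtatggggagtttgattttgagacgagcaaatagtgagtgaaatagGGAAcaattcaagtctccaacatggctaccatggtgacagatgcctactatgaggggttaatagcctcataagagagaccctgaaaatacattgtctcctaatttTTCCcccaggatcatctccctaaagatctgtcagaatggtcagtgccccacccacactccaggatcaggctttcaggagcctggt
The core stood 2 times in the Pramel6 window and 4 times in that of Pramel7, and 96.0% of 32851 mouse promoter windows of the same length hold it on either strand. The longer ETS sequence CCGGAA was in neither window and in 14.9% of all windows. The STAT palindrome TTCNNNGAA was in neither and in 8.30% of all, and the ESRRB site AAGGTCA was in neither and in 4.72% of all. CACCC, which KLF factors bind, stood 2 times for Pramel6 and 1 time for Pramel7, and 57.5% of all windows hold it. Both strands were searched, and GGAA includes every CCGGAA. The longest run of bases shared by the Pramel6 and Pramel7 windows was 10. Pramel4 and Pramel5 lie in another cluster, on chromosome 4, with 5 genes between them, among them Oog2, Oog3 and Pramel29 of the same family. Their windows held GGAA or TTCC 2 times and 4 times and were near copies, with a shared run of 111 bases and 267 identical bases of 280 aligned.

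Spots well above background made up 54.0 to 63.6% of an array, 0 spots were saturated, and precision is limited by how few arrays there are. Small areas of a chip with low signal took up at most 3.125% of the spots of an array, and no spot of the 4 genes lay in one. Summed levels of gene lists, in units of the array's 75th percentile, leave out genes with a spot in such an area or without a value on an array, so that the same genes are summed on every array. Over 6 of 7 ES cell markers, without Zfp42, the sum was lowest in pool A2, at 272 untreated and 262 with OHT, against 297 to 369 on the other arrays. Erf read 5.12 and 5.43 in the untreated wild type and 4.98 and 4.93 with OHT. It read 3.45 and 3.92 in pool A2, and 5.65 and 5.31 in pool B2, which is the wild type level. No source used here places the Erf probe inside or outside the deleted stretch, so the term labelled knockout is used below. Levels are log2 of the processed signal minus the 75th percentile of the array, so 0 is a probe at that percentile.

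Pramel6 was higher after OHT in all 4 pools and lower in the labelled knockout than in the wild type at either condition. In the untreated wild type its level was -1.63 in A1 and -2.44 in B1, and with OHT it was 0.43 and -0.02. Untreated labelled knockout cells read -2.84 in A2 and -3.44 in B2, and OHT-treated ones -1.76 and -1.23. All arrays with OHT were above all untreated arrays of the same genotype. In bulk RNA, fewer cells that express a gene and less RNA per cell cannot be told apart. On a linear scale the signal went from 32.4% and 18.5% of the array's 75th percentile to 135% and 98.9% in the wild type. In the labelled knockout it went from 14.0% and 9.20% to 29.5% and 42.5%.

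The OHT difference of Pramel6 was 2.24 ± 0.39 (SE, 2 arrays a group) in the wild type, which is 4.72-fold, and it ranked 59th of 15180 genes from the top. Pool A1, on slide 1, gave 2.06 and pool B1, on slide 2, gave 2.42. In the labelled knockout the difference was 1.64 ± 0.39, or 3.12-fold, the 76th largest. Its pools were less alike, with 1.08 in A2 and 2.21 in B2, both on slide 1. A2 is the pool with low Erf and the lowest sum of ES cell markers, and its fibroblast marker sum went from 21.6 to 40.8 with OHT, against 20.2 to 21.6 in B2. The part of these in its smaller change was not tested. The labelled knockout minus wild type difference of the OHT changes was -0.60 ± 0.55. It was -1.003 without the untreated A1 array and -0.19 without the untreated B1 array. These errors come from a fit on group means, which does not use the pairing by pool. With pools as blocks (the paired fit below) the SE was 0.27 for the OHT differences and 0.39 for their difference between genotypes. After normexp background correction, an alternative that pulls dim signals together, the OHT differences were 1.32 and 0.82.

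Pramel7, the UHRF1-directed member, had the same pattern. Its level in the untreated wild type was -1.65 in A1 and -2.20 in B1, and with OHT -0.01 and -0.54. In the labelled knockout it read -2.45 in A2 and -3.04 in B2 untreated, and -1.67 and -1.33 with OHT. Again no array with OHT was as low as an untreated array of its genotype. The OHT difference was 1.65 ± 0.33 in wild type cells (3.15-fold, 128th of 15180) and 1.24 ± 0.33 in the labelled knockout (2.37-fold, 172nd). By pool it was 1.65 in A1, 1.66 in B1, 0.78 in A2 and 1.71 in B2, so A2 was again the pool that changed least. The difference of the changes, labelled knockout minus wild type, was -0.41 ± 0.47. It was -0.70 without the untreated B2 array and -0.11 without the untreated A2 array. In the paired fit the SE was 0.23 for the OHT differences and 0.33 for the difference of the changes. Normexp gave 0.96 in wild type cells and 0.68 in the labelled knockout.

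**Figure D1:**
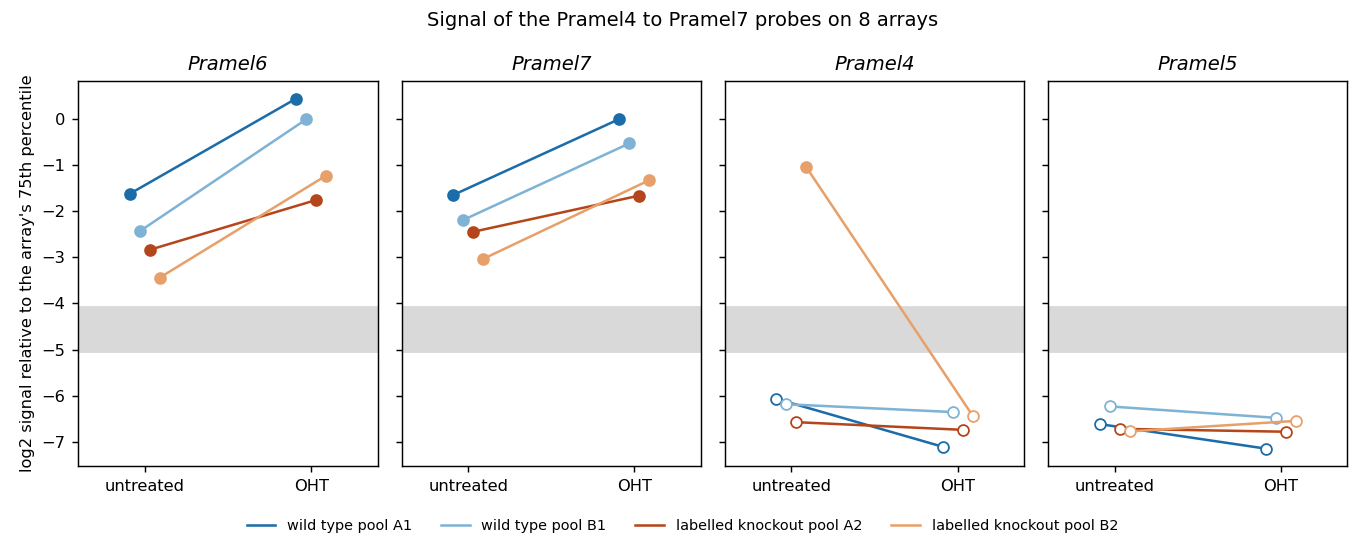
Level of each gene (log2 signal minus the array's 75th percentile) without and with OHT, 1 line per cell pool; filled points are well above background, and the grey band spans the lowest signal of probes well above background on the 8 arrays. Pramel6 and Pramel7 are higher with OHT along all 4 lines, while Pramel5 and all but 1 point of Pramel4 lie below the band.

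Both genes thus had separate groups with OHT higher in both genotypes. Of all genes tested, 16.0% had separate groups with OHT higher in wild type cells and 14.9% in the labelled knockout, and since the genes were picked for this contrast nothing is read from their count. Pramel6 changed more than Pramel7 in each pool, by 0.41 in A1, 0.76 in B1, 0.29 in A2 and 0.50 in B2 (log2). The genes were read by different probes, and the part of the probes in this gap was not tested.

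In the labelled knockout both genes were lower than in the wild type before OHT, and they stayed lower after it. Untreated, the difference labelled knockout minus wild type was -1.11 ± 0.39 for Pramel6 (2.16-fold lower) and -0.82 ± 0.33 for Pramel7 (1.77-fold lower). With OHT it was -1.71 ± 0.39 (3.27-fold lower) and -1.23 ± 0.33 (2.34-fold lower). The groups did not overlap in any of these 4 cases. Among all genes tested, 11.6% had separate groups with the labelled knockout lower when untreated and 8.26% with OHT. Limma on the group means called 0 of 15180 genes between genotypes, untreated and with OHT. Each pool had a single genotype, so ERF genotype and the clones of a pool cannot be told apart. Within slide 1, which holds all labelled knockout arrays but only pool A1 of the wild type, the Pramel6 differences were -1.51 untreated and -1.93 with OHT and those of Pramel7 -1.09 and -1.49. Without pool B2, whose Erf signal was at the wild type level, the Pramel6 differences were -0.81 untreated and -1.97 with OHT, and those of Pramel7 -0.53 and -1.40. Without the untreated A1 array the untreated differences were -0.70 and -0.55. Without pool A2 they were -1.41 and -1.44 for Pramel6 and -1.11 and -1.06 for Pramel7.

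Ordered by mean level, Pramel6 was highest in the wild type with OHT (0.21 ± 0.32, SD, n = 2), followed by the labelled knockout with OHT (-1.50 ± 0.37), the untreated wild type (-2.03 ± 0.57) and the untreated labelled knockout (-3.14 ± 0.43). Pramel7 kept this order with -0.27 ± 0.37, -1.50 ± 0.24, -1.93 ± 0.38 and -2.75 ± 0.42. The middle neighbours did not differ beyond their spread: the labelled knockout with OHT lay 0.53 ± 0.39 above the untreated wild type for Pramel6 and 0.43 ± 0.33 above it for Pramel7 (SE), and the ranges overlapped.

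Pramel4 was not well above background on 7 of 8 arrays, where its level lay between -7.10 and -6.07. On the array of untreated B2 it read -1.05, or 48.2% of the 75th percentile, and the same pool with OHT read -6.43. That 1 spot had a median pixel signal of 138, against 34 to 61.5 on the other arrays, carried no flag and lay in no area of low signal. It is a single spot on a single array, and whether it is RNA or a fault of the spot was not tested. Pramel5 was not well above background on any array and lay between -7.15 and -6.23. No fold is given for either gene.

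The genes most like each member were sought over all 8 arrays by the root mean square (RMS) distance between centred log2 levels, among 13039 genes well above background throughout. Pramel6 and Pramel7 were 0.327 apart. For Pramel6, Pramel7 was the nearest gene of all, where the median gene was 1.30 away. For Pramel7, Pramel6 was the next nearest after Slc51a, a subunit of the bile acid and steroid transporter OST, at 0.263, and the median gene was 0.993 away. Slc51a was 1.72 higher with OHT in the wild type and 1.05 higher in labelled knockout cells. It was nearest to Pramel6 too after Pramel7, at 0.395, followed by the myelin gene Mobp at 0.414 and the autophagy receptor gene Calcoco2 at 0.422. Calcoco2 was 3.16 and 2.91 higher in A1 and B1 and 1.97 and 2.26 in A2 and B2. Mobp was 2.41 and 2.06 higher in the wild type pools but 0.18 and 1.06 in A2 and B2. Next to Pramel7 stood also the adaptor complex gene Ap3b2 (0.338) and the tubulin modifier gene Ttll6 (0.345), which was 1.87 higher with OHT in wild type cells and 1.54 in the labelled knockout. The distances rest on arrays that share pools and slides, so they describe likeness and carry no test.

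**Figure D2:**
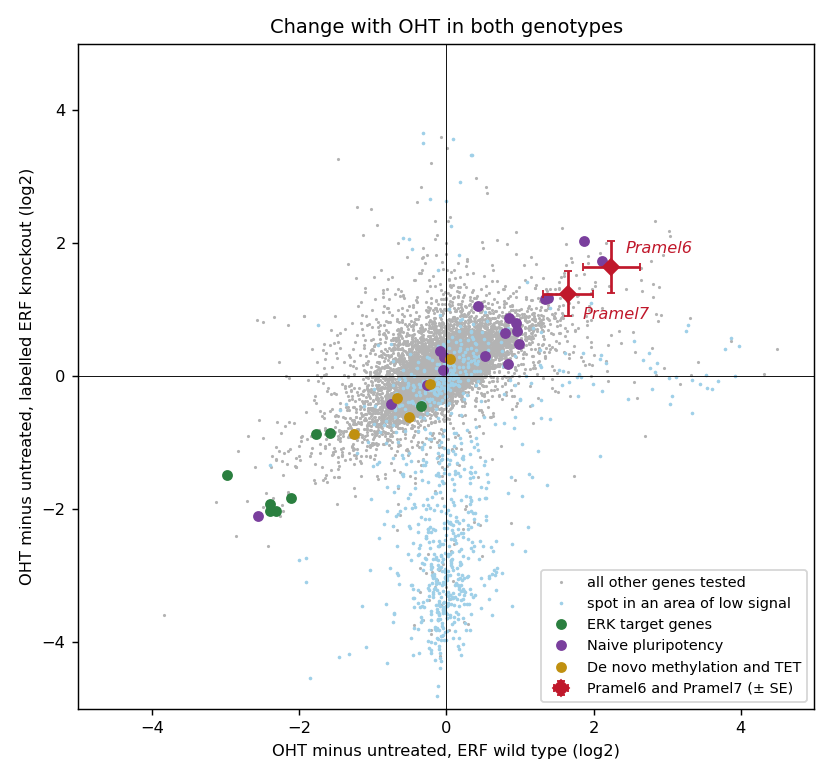
Change with OHT in the wild type (x axis) against that in the labelled knockout (y axis), log2 difference of group means, 1 point per gene, with error bars (SE) for Pramel6 and Pramel7. Both lie in the upper right, at 2.24 and 1.64 and at 1.65 and 1.24, and of the 414 genes below -2 on the y axis 371 (light blue) had their spot in an area of low signal of an array.

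Genes of the pathway were read against a test over all genes. The gene lists were written with earlier results of these arrays known, so counts of calls within a list are a description. With limma on the group means, 0 genes were called at a Benjamini-Hochberg adjusted p of 0.05 in either genotype, with 905 at an unadjusted p under 0.05 in wild type cells and 585 in the labelled knockout. A paired fit, also with limma, took the cell pools as blocks, left out spots in areas of low signal and used a trended and robust variance. It called 15.7% of genes in wild type cells (6.61% higher and 9.13% lower with OHT) and 8.31% in the labelled knockout (4.28% higher and 4.04% lower), and all calls below come from it. In this fit 2389 genes were called in wild type cells and 1262 in the labelled knockout. With a pool left out, the wild type count was lower without A1 or B1 and higher without A2 or B2. The labelled knockout count was lower whichever pool was left out. Such a fit has fewer residual degrees of freedom and leaves a single array in each group of the genotype that lost its pool. A changed count, here or below, thus cannot be laid to that pool alone.

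Partners and target of Pramel7 showed no call. Of 8 measured genes of the cullin 2 ligase and the UHRF1 pathway, 0 passed in either genotype, and their median change was -0.05 in wild type cells and -0.10 in the labelled knockout, against -0.05 and 0.03 over all genes. Uhrf1 itself changed by 0.16 ± 0.08 and 0.06 ± 0.08 (SE), with limma adjusted p of 0.241 and 0.681. The ligase genes with the smallest p were Nedd8, the modifier that activates cullins, at -0.15 and -0.23, the adaptor gene Eloc at -0.13 and -0.25, and the Nedd8-conjugating enzyme gene Ube2m at 0.28 and -0.09. Of 9 measured genes of LIF and STAT3 signalling, which lies upstream of Pramel7, 0 passed in either genotype too, with medians of 0.02 and 0.15. The kinase gene Jak1 changed by 0.26 and 0.10, the receptor gene Lifr by -0.27 and 0.15, and the STAT3 targets Socs3 by -0.23 and 0.03 and Pim1 by -0.37 and -0.46. These are RNA levels, and protein was not measured.

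Naive pluripotency genes, the group to which Pramel6 and Pramel7 are assigned, rose more often than they fell. Of 18 measured, 9 rose and 1 fell in wild type cells, and 6 rose and 1 fell in the labelled knockout. Of all genes, 6.61% were called higher and 9.13% lower in wild type cells, and 4.28% and 4.04% in the labelled knockout. The medians of the 18 were 0.82 and 0.44, against -0.05 and 0.03 over all genes. Prdm14, a repressor of differentiation genes, rose by 2.11 and 1.74 (limma adjusted p 5.19e-04 and 0.00312). Dppa3, which keeps UHRF1 from chromatin, rose by 0.96 and 0.69 (adjusted p 0.00246 and 0.0171). Tcl1, a cofactor of the kinase AKT, rose by 0.98 and 0.49, and the homeobox gene Gbx2 fell by 2.55 and 2.10 (adjusted p 0.00258 and 0.0108). The wild type count of risen genes was 5 without pool A1 and 5 without B1, its count of fallen genes 2 without A1, and the labelled knockout count of fallen genes 0 without A2 or without B2. Over 17 of the 18 genes, without Zfp42, the summed level went from 474 to 733 in A1, 551 to 747 in B1, 299 to 450 in A2 and 625 to 755 in B2, so A2 was lowest at both conditions.

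Genes that ERK switches on fell throughout. All 8 measured ERK targets fell in both genotypes, with medians of -2.21 and -1.66, against 9.13% and 4.04% of all genes called lower. The ERK phosphatase genes Dusp6 and Dusp4 fell by 2.32 and 2.40 in wild type cells and by 2.02 each in the labelled knockout. The ETS activator gene Etv4 fell by 2.11 and 1.83 and the feedback inhibitor gene Spry2 by 1.77 and 0.86 (limma adjusted p 5.72e-04 and 0.0142). The labelled knockout count was 5 without pool B2. For no gene did the paired fit call a difference of the OHT changes between genotypes: limma called 0, with 1170 at an unadjusted p under 0.05.

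Among 5 genes of de novo methylation and TET oxidation, the 3 de novo methylation genes fell in both genotypes. Of all genes, 9.13% and 4.04% were called lower. Dnmt3b, a de novo methyltransferase gene, fell by 1.25 and 0.87 (limma adjusted p 3.20e-04 and 0.00312). Its partner Dnmt3l fell by 0.67 and 0.33, and the methyltransferase gene Dnmt3a by 0.50 and 0.61. Tet1, which oxidises methylcytosine, did not pass at -0.22 and -0.11 (adjusted p 0.0767 and 0.339). Without pool A1, B1 or B2 the labelled knockout count of fallen genes was 1. Methylation itself was not measured.

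**Figure D3:**
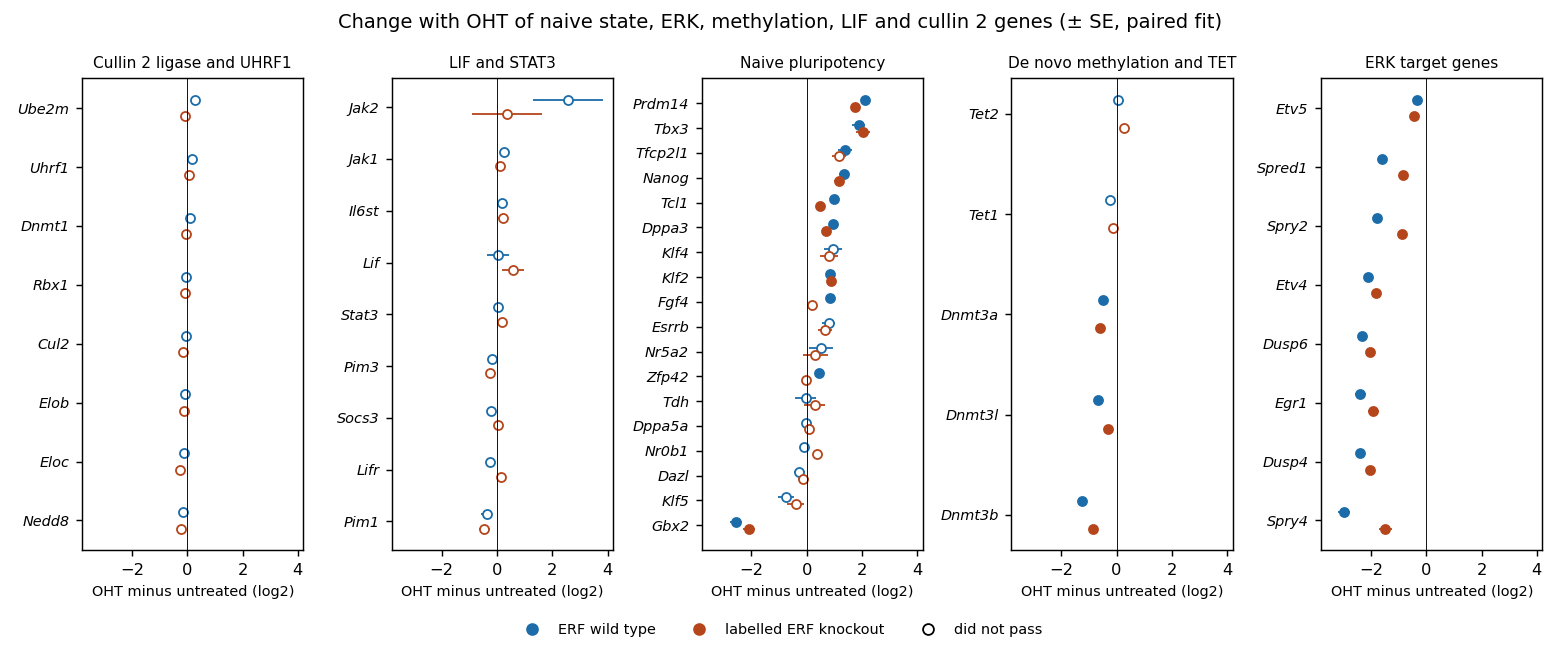
Change with OHT (log2, x axis) of each measured gene of 5 lists in the wild type (blue) and the labelled knockout (red), from the paired fit, with SE as bars. Filled points passed the threshold of 0.05, so all 8 ERK targets are filled on the left, 9 naive genes are filled on the right in the wild type, and no cullin 2 or LIF gene is filled.

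Other PRAME family genes differed mainly between the A and B pools. Besides the 4 genes, 30 of the family had a named probe, of which 15 were tested and 8 were not well above background on any array. The filter needs both arrays of a group, and each group pairs an A pool with a B pool. A gene well above background in the pools of only 1 letter was thus not tested and is missing from the counts below. Pramel17, Pramel21 and Pramel24 were well above background on 4 arrays and were not tested. In 11 of the 15, every array of an A pool was above every array of a B pool, in both genotypes and without and with OHT, against 7.38% of all genes. In 8 of them the gap between the lowest A and the highest B array was at least 8-fold, which holds for 29 genes in all (0.192%), and for 0 genes the other way round. These 8 were Pramel50, Pramel19, Pramel39, E330014E10Rik, Pramel20, Gm13043, Pramel31 and Gm2022, with gaps of 3.05 to 4.74 on the log2 scale. Pramel19 read 1.86 to 2.39 on the 4 A arrays and -4.02 to -2.75 on the 4 B arrays. Pramel39 read 3.71 to 4.09 and -2.20 to -0.75.

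The rest of the family had smaller gaps or none. Oog2, which lies between Pramel4 and Pramel5, had a gap of 2.79, AA792892 one of 2.28 and Pramel34 one of 1.97. Pramel12, Pramel13, Pramel25 and Pramel48 overlapped between A and B pools, as did Pramel6 and Pramel7. Since Pramel6 and Pramel7 were selected on their signal over OHT and genotype, nothing is read from their overlap. Within a group both read higher in the A pool than in the B pool, except in the labelled knockout with OHT. The paired fit called 1 of the 15 with OHT in the wild type and 2 in labelled knockout cells, against 15.7% and 8.31% of all genes. Pramel13 rose by 0.39 in both genotypes (limma adjusted p 0.0211 and 0.0365), and Pramel39 fell by 0.52 in the labelled knockout (adjusted p 0.0424). Many of these genes are near copies, and how far their probes read each other's RNA was not tested.

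Genes of the 2-cell-like state, a rare ES cell state that resembles the cleaving embryo, moved with the same pools. Of 9 measured, 8 were higher on every A array than on every B array and 7 by at least 8-fold. These 8 belong to the Zscan4, Tcstv and Usp17l families, and how far probes of a family read each other's RNA was not tested. The summed level of the 9 genes was 232 to 319 on the A arrays and 17.2 to 31.0 on the B arrays. Zscan4b, a zinc finger gene that marks this state, read 5.98 to 6.50 in the A pools and 1.06 to 2.33 in the B pools. It fell with OHT by 0.39 and 0.34 (limma adjusted p 0.0132 and 0.0372). With it, 3 genes of the list fell in wild type cells and 4 in the labelled knockout, against 9.13% and 4.04% of all genes. Zfp352 was the exception among the 9, with overlapping pools. A2 and B2 lay on the same slide, so for the labelled knockout the slide does not separate the letters. No source used here says what the pool letter stands for beyond a mix of clones.

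**Figure D4:**
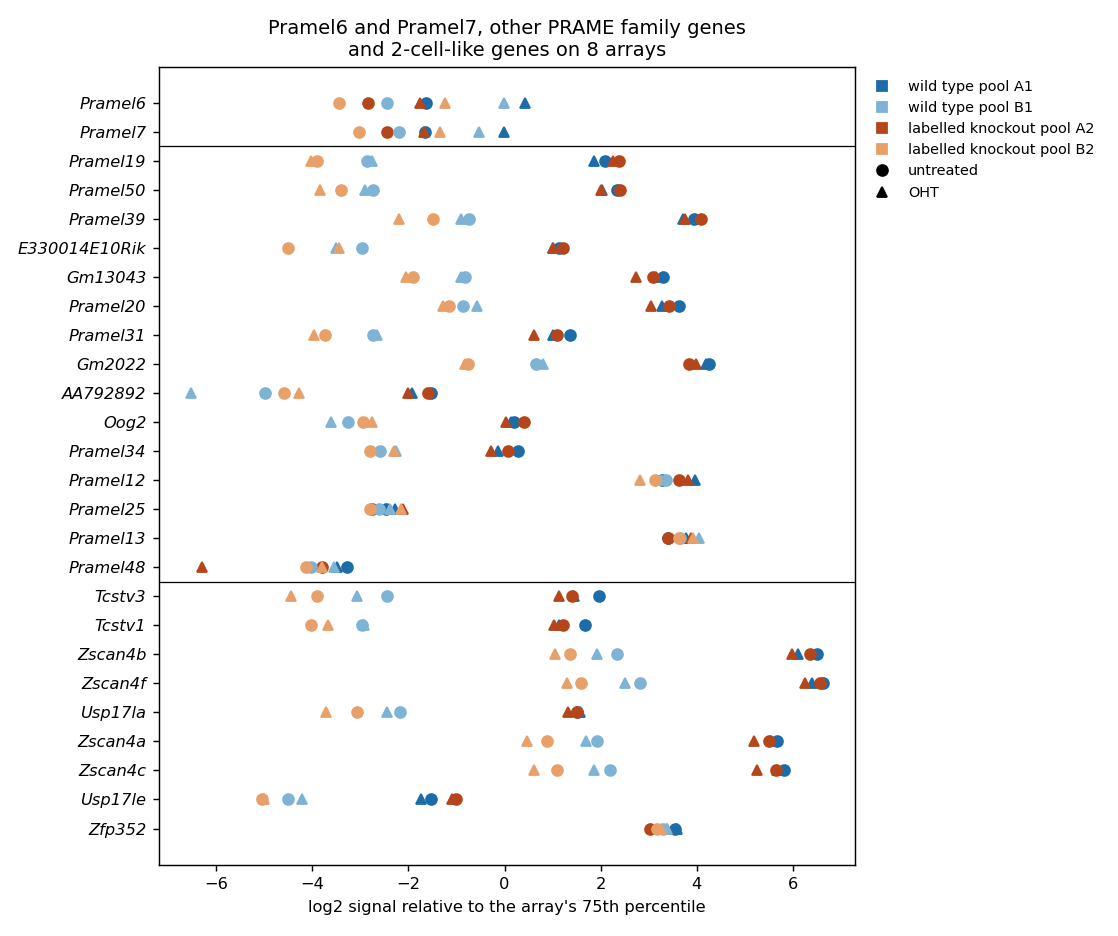
Level on each array (log2 signal minus the array's 75th percentile, x axis) of Pramel6, Pramel7, the 15 other tested PRAME family genes and 9 genes of the 2-cell-like state, coloured by cell pool, circles untreated and triangles OHT. Pramel6 and Pramel7, selected on these differences, spread by OHT and genotype. Split by pool letter with gaps of at least 8-fold are 8 family genes and 7 genes of the 2-cell-like state.

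Markers of other cells were measured too. Of 6 trophoblast genes 2 rose and 1 fell in wild type cells, and 1 rose and 1 fell in the labelled knockout, against 15.7% and 8.31% of all genes called. Their summed level was 10.4 to 15.1 untreated and 14.5 to 26.8 with OHT, and most of it was 1 gene, Tfap2c. Tfap2c, a trophoblast and germ cell factor, read 2.94 to 4.56 on the log2 scale, and every other gene of the list 1.66 or lower. It rose by 1.41 in wild type cells and did not pass in the labelled knockout at 0.41 (limma adjusted p 6.55e-04 and 0.0605). Gata3 rose by 1.20 and 0.77. Cdx2 fell by 1.33 in the wild type, and Hand1 by 0.83 in the labelled knockout. Of 6 oocyte and germ line genes, 1 fell in the wild type, the germ cell helicase gene Ddx4 by 0.57, and 0 passed in the labelled knockout. For primitive endoderm 0 of 7 genes passed in either genotype, and the summed level of 5 of them was 0.893 to 2.17. For fibroblast feeders 0 of 8 passed in either genotype. The summed level of 7 of these, without Col1a1, was 15.6 untreated and 16.0 with OHT in A1, 28.4 and 31.2 in B1, 21.6 and 40.8 in A2, and 20.2 and 21.6 in B2, so A2 with OHT stood highest. The part of these cells in the levels of Pramel6 and Pramel7 was not tested.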

How the data were processed

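Total RNA of 8 ES cell samples was labelled with Cy3 and hybridised to 1 Agilent array each. The deposited scanner files hold spot intensity (per the file headers, from Agilent software Feature Extraction, version 11.5.1.1) as processed signal (background-subtracted) and as median pixel intensity of spot and local background. No source used here gives how the authors normalised the arrays. The deposited value table was not used.

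Each array had 62976 spots, 59305 of them no controls, for 55681 probes. Outlier spots were left out, spots of a probe averaged, and each array's 75th percentile subtracted from log2 values. RefSeq names (GRCm38.p6) matched 28026 probes and left 27655 unnamed. A probe was tested if well above background on both arrays of a group, and the brightest probe kept per gene.

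Limma 3.58.1 in R 4.3.3 compared group means with 4 residual degrees of freedom, adjusted by Benjamini-Hochberg over all genes and two-sided. The paired fit had 2. Pairing comes from the source names. Deviations of same-pool arrays correlated at 0.658 (wild type) and 0.443 (labelled knockout) across genes over all spots. With areas of low signal left out, as in the paired fit, the values were 0.717 and 0.667. Areas of low signal are windows of 13 by 13 spots whose median deviation from the other arrays is under -0.5 (log2). The members, gene lists and tests were chosen with earlier results of these data known. Named genes were the members, Erf, all tested PRAME genes, the 3 other genes most like each member, and up to 4 genes per list with the smallest p in the wild type paired fit. The labels call the 2 arrays of a group biological replicates. Figures were drawn with Python 3.11.15 and matplotlib 3.10.9.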

Additional observations from a re-analysis of the deposited data

How the results depend on the processing

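Under other scalings, background corrections, filters and blocks, and with each array left out, the OHT differences of Pramel6 and Pramel7 kept their direction. So did the difference of these between genotypes, and the genotype differences untreated and with OHT. For the OHT differences, filters, blocks and variance choices could not change this, as they give the same estimate. Nor could leaving out 1 array turn the OHT or genotype differences, because the groups did not overlap. Only normexp and the other scalings could turn the OHT differences. With normexp the OHT difference of Pramel6 was 1.32 (wild type) and 0.82 (labelled knockout), and that of Pramel7 in the wild type was 0.96. Pramel7 in the wild type gave 1.68 with quantile normalisation and 1.69 with the percentile taken over probes above background on all arrays. With 1 array left out, Pramel6 ran from 1.84 to 2.65 in wild type cells and from 1.34 to 1.94 in the labelled knockout, and Pramel7 from 1.38 to 1.92 and from 0.95 to 1.54. The difference of the OHT changes ran from -1.003 to -0.19 for Pramel6 and from -0.70 to -0.11 for Pramel7. Normexp moved the untreated genotype difference of Pramel6 to -0.73. Each gene had 1 probe, so another probe could not be tried.

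Counts of called genes depended far more on the fit. In the wild type limma called 4 genes over probes above background on all 8 arrays and 3 with a variance prior that was trended and robust. Blocking by pool and nothing else called 0 in both genotypes, while the paired fit, which adds the pool block to 2 other choices, called 2389 and 1262. The block could not change the OHT differences of Pramel6 and Pramel7, only their errors, because every pool has 1 untreated and 1 OHT array. With 1 array left out, calls ran from 0 to 29 in the wild type (29 without the untreated B1 array), from 3 to 384 in the labelled knockout, from 0 to 325 for the difference of the OHT changes, and from 0 to 21 untreated and 0 to 386 with OHT between genotypes. The highest of the labelled knockout, difference and OHT counts came without the OHT array of pool B2. The OHT array of pool A2 then stands alone for its group. It had the largest share of spots in areas of low signal, 3.125%, and the part of these areas in the counts was not tested. The fits without single pools were chosen after seeing the data. With 2 arrays a group, small differences could not be resolved.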
